A study of Mus musculus with 52 samples.

Results

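Lymph nodes of mice given ATOR-4066, an antibody that binds both CD40 and CEACAM5 (a tumor antigen), were compared with those of mice given vehicle. The comparison takes 5 ATOR-4066 nodes (numbers 1 to 5 of the titles) and 4 vehicle nodes (numbers 1, 2, 4 and 5), which are 9 of the 52 RNA sequencing libraries of the study, chosen by tissue and treatment as their labels and titles give them. All mice carried human CD40 (hCD40tg) and had been inoculated with MC38-CEACAM5 tumors, a mouse colon carcinoma line made to express CEACAM5. Lymph nodes of 4 mice that received CD40 mAb, a CD40 antibody without the CEACAM5 arm, entered the same fit, and whole tumors were used for a further comparison. The labels name the material as lymph and give neither the site of the node, the age of the mice nor the doses and times of treatment. The number in a title was read as the mouse, which the labels do not state, so p-values measure the spread between these libraries.

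CD40 is a receptor of the tumor necrosis factor receptor family on B cells, dendritic cells and macrophages, and signals through TRAF adaptors to NF-kappaB when it is bound by CD40 ligand on helper T cells or by an agonist antibody. In lymph nodes this signal licenses dendritic cells to prime T cells, and drives B cells into germinal centers, class switching and plasma cell differentiation. Plasma cells enlarge their endoplasmic reticulum to secrete immunoglobulin, and chaperones and degradation factors of that compartment were among the markers used for them here.

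Another library labelled lymph node vehicle, number 3, went against its label and was left out. Its B cell markers had a mean level of 1.67 on the log2(CPM + 1) scale, against 7.57 to 8.29 in the other vehicle nodes, and its fibroblast and matrix markers 8.02, against 5.77 to 6.68. Its correlation with the other vehicle nodes was 0.712 to 0.771, against 0.966 to 0.989 among them (Pearson, log2 levels across genes). On levels scaled over both tissues, it correlated at 0.887 to 0.988 with the 13 tumor libraries and at 0.695 to 0.756 with the 13 lymph node libraries of the study. The library labelled tumor ATOR-4066 3 had the reverse, with 0.716 to 0.871 and 0.940 to 0.967. Whether these 2 libraries were exchanged was not tested. In the 9 nodes compared, the B cell markers lay between 7.49 and 8.44 in the ATOR-4066 nodes, against 7.57 to 8.29 in the vehicle nodes, and T cell markers between 7.05 and 7.58, against 6.86 to 7.52. Library totals were 49.996 to 58.1 M counts in ATOR-4066 nodes 1 to 4, 138.5 M in ATOR-4066 node 5 and 49.2 to 60.4 M in the vehicle nodes.

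The nodes also differed in the fat and epithelial RNA they carried. The mean level of the fat cell markers was 6.02, 1.67, 1.40, 1.65 and 6.39 in ATOR-4066 nodes 1 to 5, against 7.14, 6.71, 6.44 and 5.67 in the vehicle nodes, on the log2(CPM + 1) scale. ATOR-4066 nodes 1 and 5 therefore lay within the vehicle range, and ATOR-4066 nodes 2, 3 and 4 far below it. The adipokine gene Lep was at 17.4, 0.127, 0.132, 0.257 and 26.96 CPM in the ATOR-4066 nodes, against 73.3, 32.6, 35.5 and 17.8 CPM in the vehicle nodes. The keratin gene Krt18 was at 32.3, 0.181, 0.244, 0.395 and 32.5 CPM in the ATOR-4066 nodes, against 76.9, 53.5, 34.3 and 22.9 CPM in the vehicle nodes, with the same ATOR-4066 nodes near 0. No member of the fat cell list (10 genes) or of the tumor and epithelial list (9 of 10 genes tested) reached an unadjusted p of 0.05 in either direction, with median log2 changes of -1.77 and -1.51, where 6.27 percent of all genes were higher and 9.55 percent lower at that p. In bulk tissue, fewer cells of a type and less RNA per cell cannot be told apart.

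No gene was called between ATOR-4066 and vehicle nodes. Of 18671 genes tested with edgeR's quasi-likelihood test, 0 had an adjusted p under 0.05 (0 percent in each direction), and the lowest adjusted p was 0.222. At an unadjusted p under 0.05 there were 1171 genes higher (6.27 percent of those tested) and 1783 lower (9.55 percent). In 437 genes (2.34 percent) every ATOR-4066 node lay above every vehicle node, and in 517 (2.77 percent) every one lay below. The alternative test, DESeq2, called 224 genes higher and 279 lower (1.36 and 1.69 percent of the 16461 genes to which it gave an adjusted p), while limma with voom called 0. All 503 of the DESeq2 calls had the same sign and an unadjusted p under 0.05 in edgeR. With the library labelled vehicle 3 kept, edgeR called 0 genes. The direction of every gene below is thus a description of these 9 nodes, and an adjusted p is from edgeR unless DESeq2 is named. Gene lists and their members were chosen with earlier results of these data known. A list share set beside that of all genes is therefore a description too. The median log2 change over all genes was -0.01.

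**Figure D1:**
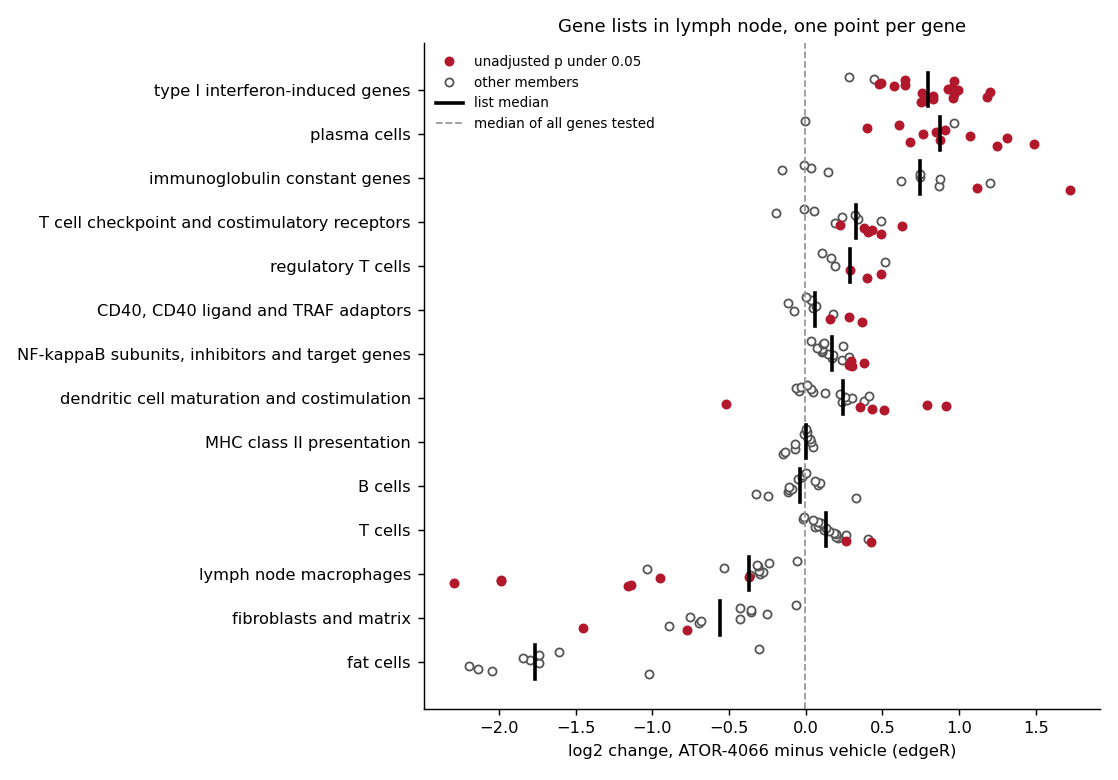
Log2 change of each member of 14 gene lists, ATOR-4066 minus vehicle nodes, with members at an unadjusted p under 0.05 in red, the list median as a black bar and the median of all genes as a dashed line. Type I interferon-induced and plasma cell genes lie to the right (medians 0.80 and 0.87), and macrophage, matrix and fat markers to the left (-0.37, -0.56 and -1.77), with 0 genes called after adjustment.

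Genes induced by type I interferon were at higher levels in ATOR-4066 nodes. Of the 20 genes on the list, all tested, 20 had a positive log2 change and 18 were higher at an unadjusted p under 0.05 (6.27 percent of all genes were), with a median of 0.80 against -0.01 over all genes. Every ATOR-4066 node lay above every vehicle node in 3 of the 20 (2.34 percent of all genes), and DESeq2 called 11, all higher (1.36 percent of all genes). Usp18, the protease that removes ISG15 from proteins and dampens interferon receptor signalling, was at 46.4, 73.9, 38.1, 54.7 and 52.003 CPM in the ATOR-4066 nodes, against 37.7, 28.9, 29.3 and 30.2 CPM in the vehicle nodes. The groups did not overlap, with ATOR-4066 node 2 the highest and vehicle node 1 the highest of its group. The log2 change was 0.75 ± 0.16 (SE), with an unadjusted p of 0.00051, an adjusted p of 0.222 and a DESeq2 adjusted p of 0.00383. Cmpk2, a mitochondrial nucleotide kinase, was at 30.9, 53.8, 28.5, 32.4 and 35.4 CPM in the ATOR-4066 nodes, against 25.3, 19.6, 22.1 and 18.1 CPM in the vehicle nodes. Its groups did not overlap either, and its log2 change was 0.76 ± 0.18 (SE). Mx1, a dynamin-like antiviral GTPase, was at 32.4, 50.9, 21.2, 33.8 and 32.8 CPM in the ATOR-4066 nodes, against 24.7, 16.9, 18.9 and 16.3 CPM in the vehicle nodes. For Mx1, ATOR-4066 node 3 lay inside the vehicle range and the other 4 nodes lay above it, with a log2 change of 0.83 ± 0.21 (SE).

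The interferon list depended on single libraries in size but not in sign among the 9 nodes. Without ATOR-4066 node 2, which had the highest list level (5.95 on the log2(CPM + 1) scale, against 4.86 to 5.35 in the other ATOR-4066 nodes), 15 of the 20 genes were higher at an unadjusted p under 0.05, with a median of 0.61. Without vehicle node 1, 20 of 20 passed that p, with a median of 0.94. With the library labelled vehicle 3 kept, whose list level was 7.42, against 4.18 to 5.01 in the other vehicle nodes, 1 of 20 passed and the median was -0.40. With that library the log2 changes of Cmpk2, Mx1, Ifit3 and Isg15 were -0.18, -0.05, -0.74 and -0.52.

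Promoters of these genes are shown because the interferon-stimulated response element, the DNA element bound by the interferon-activated factor complex, is known from them. Promoter windows of 300 bases (250 before and 50 after the transcript start) were taken from RefSeq on GRCm38.p6 and matched by symbol, which gave 15 of the 20 genes. The motif searched on both strands was GAAA, any 2 bases, then GAAA, and it occurred in 8 of the 15 (53.3 percent) and in 3.44 percent of all 32851 windows. A listed gene counted when any of its windows matched, so the 2 shares are unlike measures. The match describes these letters only. Ifit3 (chr19:34583279-34583578, plus strand) and Isg15 (chr4:156200769-156201068, minus strand) were picked for their matches after the values were seen. Capitals mark the motif on either strand, and in Isg15 they mark 3 overlapping matches.
Ifit3: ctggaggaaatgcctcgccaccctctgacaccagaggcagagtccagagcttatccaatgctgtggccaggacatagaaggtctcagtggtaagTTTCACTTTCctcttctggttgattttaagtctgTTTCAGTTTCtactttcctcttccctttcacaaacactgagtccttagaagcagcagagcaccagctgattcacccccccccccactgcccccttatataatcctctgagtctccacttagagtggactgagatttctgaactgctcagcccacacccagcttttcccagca
Isg15: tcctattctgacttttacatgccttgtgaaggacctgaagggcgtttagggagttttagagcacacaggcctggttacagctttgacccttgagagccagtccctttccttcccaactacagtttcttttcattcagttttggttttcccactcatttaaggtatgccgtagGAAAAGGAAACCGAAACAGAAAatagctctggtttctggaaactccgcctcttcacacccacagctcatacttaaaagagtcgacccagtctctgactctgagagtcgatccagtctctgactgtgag
Ifit3, an antiviral gene with a near-identical copy, was at 71.5, 109, 44.4, 56.6 and 81.3 CPM in the ATOR-4066 nodes, against 59.1, 31.3, 39.3 and 22.9 CPM in the vehicle nodes. ATOR-4066 nodes 3 and 4 lay within the vehicle range, which reached its top in vehicle node 1. Isg15, the ubiquitin-like modifier, was at 44.6, 120.3, 32.1, 40.4 and 49.6 CPM in the ATOR-4066 nodes, against 35.1, 23.2, 23.7 and 18.02 CPM in the vehicle nodes, and ATOR-4066 node 3 lay below vehicle node 1. The log2 changes were 0.93 ± 0.30 (SE) for Ifit3 and 1.20 ± 0.37 (SE) for Isg15.

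Plasma cell genes were also at higher levels in ATOR-4066 nodes. Of the 13 markers, all tested, 11 were higher at an unadjusted p under 0.05 (6.27 percent of all genes were) and 0 were lower. The median log2 change was 0.87. Every ATOR-4066 node lay above every vehicle node in 6 of the 13 (2.34 percent of all genes). DESeq2 called 6, all higher (1.36 percent of all genes). Creld2, a chaperone cofactor of the endoplasmic reticulum, was at 184, 302, 166, 149 and 149.8 CPM in the ATOR-4066 nodes, against 52.1, 115, 84.03 and 69.4 CPM in the vehicle nodes. The groups did not overlap, and its mean was 2.38 times as high in the fit (log2 change 1.25 ± 0.26 (SE), unadjusted p = 0.000464, adjusted p = 0.222, DESeq2 adjusted p = 0.000821). Derl3, a derlin of the degradation pathway for misfolded secretory proteins, was at 42.1, 69.2, 36.9, 35.6 and 39.04 CPM in the ATOR-4066 nodes, against 6.498, 25.4, 15.4 and 16.1 CPM in the vehicle nodes. Its groups were also separate, with ATOR-4066 node 2 the highest and vehicle node 1 the lowest, and its log2 change was 1.49 ± 0.33 (SE). Sdf2l1, a component of the chaperone complex of that compartment, was at 131, 169.5, 119.9, 120.4 and 114 CPM in the ATOR-4066 nodes, against 62.7, 102, 83.9 and 77.2 CPM in the vehicle nodes, with a log2 change of 0.68 ± 0.16 (SE) and no overlap between groups. Creld2 and Sdf2l1 do not mark plasma cells alone. In vehicle tumors they were at 79.3 to 99.1 and 38.3 to 53.7 CPM, where Derl3 was at 0.118 to 0.853 CPM.

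Creld2 and Derl3 are shown with their promoters because both hold a match to the endoplasmic reticulum stress element, through which the unfolded protein response is known to act. The motif searched on both strands was CCAAT, any 9 bases, then CCACG. It occurred in these 2 of the 12 plasma cell genes with a RefSeq window, counted by gene, and in 0.119 percent of all windows, counted by window. The windows are chr15:88819396-88819695 and chr10:75893148-75893447 of GRCm38.p6, both on the plus strand, and capitals mark the motif, which lies on the opposite strand in both. Its first printed base lies 126 bases before the transcript start in Creld2 and 156 bases before it in Derl3.
Creld2: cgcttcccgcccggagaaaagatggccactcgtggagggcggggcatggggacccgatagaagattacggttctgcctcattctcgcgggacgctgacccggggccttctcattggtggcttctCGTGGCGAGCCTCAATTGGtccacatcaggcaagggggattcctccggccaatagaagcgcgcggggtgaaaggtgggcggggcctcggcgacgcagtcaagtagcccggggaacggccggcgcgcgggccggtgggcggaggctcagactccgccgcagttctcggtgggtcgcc
Derl3: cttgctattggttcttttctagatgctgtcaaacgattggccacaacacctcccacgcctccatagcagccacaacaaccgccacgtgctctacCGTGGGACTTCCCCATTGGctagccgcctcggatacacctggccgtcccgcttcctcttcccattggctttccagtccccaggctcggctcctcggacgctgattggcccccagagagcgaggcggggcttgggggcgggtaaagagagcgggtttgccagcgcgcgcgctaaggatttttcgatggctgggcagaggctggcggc
A match describes the letters and not the use of the element in these nodes. Without ATOR-4066 node 2, whose plasma cell list level was 7.47 against 6.64 to 6.78 in the other ATOR-4066 nodes, 9 of the 13 markers passed the unadjusted p and the median was 0.68. Without vehicle node 1, the lowest of its group (5.44, against 6.004 to 6.51), 9 passed and the median was 0.71. With the library labelled vehicle 3 kept, 8 passed and the median was 1.00.

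**Figure D2:**
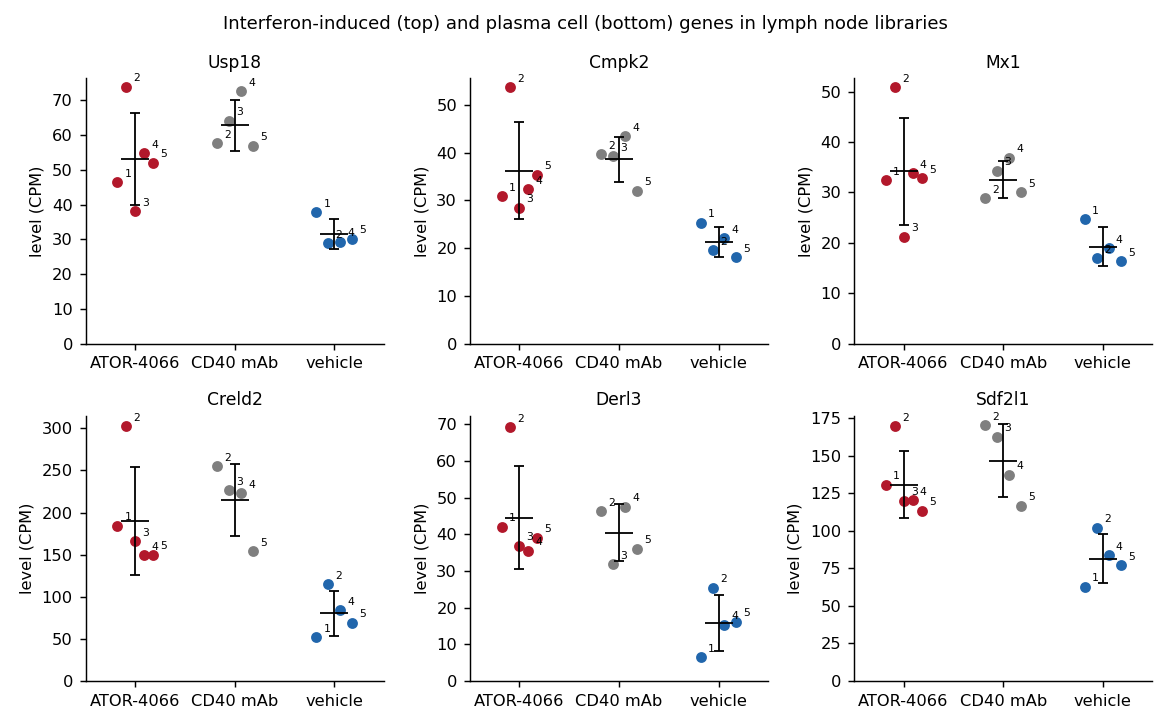
Levels in CPM of 3 interferon-induced genes (top) and 3 plasma cell genes (bottom) in each lymph node library, with the mean and SD of each group and the title number beside each point. Creld2 was at 149 CPM or more in every ATOR-4066 node, against 115 CPM or less in every vehicle node, and ATOR-4066 node 2 is the highest of its group in all 6 genes.

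Immunoglobulin RNA was more variable. Of the 12 constant region genes, 10 had a positive log2 change, with a median of 0.75. At an unadjusted p under 0.05, 2 were higher (6.27 percent of all genes were). Ighg1, the constant region of IgG1, was at 3999, 18124, 8096, 7999 and 8017 CPM in the ATOR-4066 nodes, against 810.3, 4505, 2171 and 3730.4 CPM in the vehicle nodes. ATOR-4066 node 1 lay below vehicle node 2, and ATOR-4066 node 2 was far above the rest, with a log2 change of 1.72 ± 0.61 (SE) and a DESeq2 adjusted p of 0.0494. Igkc, the kappa light chain constant region, was at 9621, 25213, 8889.8, 8706 and 11149 CPM in the ATOR-4066 nodes, against 1928, 9649.9, 5726 and 6158 CPM in the vehicle nodes, with overlap between the groups and a log2 change of 1.12 ± 0.46 (SE). Igha, the IgA constant region, was at 188, 253, 70.1, 141 and 47.7 CPM in the ATOR-4066 nodes, against 38.8, 102, 95.99 and 69.5 CPM in the vehicle nodes, and its groups overlapped widely (unadjusted p = 0.1).

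Class-switched transcripts took a larger share of heavy chain counts in ATOR-4066 nodes. IgG, IgA and IgE constant regions together made up 80.6, 91.5, 74.8, 76.2 and 83.5 percent of heavy chain counts in ATOR-4066 nodes 1 to 5, against 38.3, 78.0, 61.1 and 70.5 percent in vehicle nodes 1, 2, 4 and 5. Vehicle node 2 lay above ATOR-4066 nodes 3 and 4, and the other 3 vehicle nodes lay below every ATOR-4066 node. The share was 81.3 ± 6.68 percent (SD, n = 5) against 62.0 ± 17.2 percent (SD, n = 4), a difference of 19.3 percentage points, with p = 0.0476 in a two-sided exact permutation test over libraries, whose smallest possible p is 0.0159. Leaving out 1 node, which also leaves fewer permutations, the difference was 11.5 points without vehicle node 1 (p = 0.107, exact) and 16.8 to 24.7 points in the other 8 fits, and p was above 0.05 in 8 of the 9 fits. With the library labelled vehicle 3 kept, the difference was 27.4 points (p = 0.0238, exact).

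The classes within the switched share differed between the ATOR-4066 nodes. Ighg1 made up 26.4, 47.8, 60.7, 59.5 and 45.7 percent of heavy chain counts in ATOR-4066 nodes 1 to 5, against 24.1, 30.7, 24.6 and 38.4 percent in the vehicle nodes. Ighg2c, the IgG2c constant region, made up 33.4, 27.6, 6.72, 7.76 and 17.8 percent, against 4.14, 26.2, 16.9 and 17.4 percent. IgG1 was thus the largest class in ATOR-4066 nodes 2 to 5, and IgG2c in node 1. These constant regions are similar in sequence, so how reads were split between them is uncertain. Ighm, the constant region of unswitched IgM, made up 6.49 to 18.7 percent in the ATOR-4066 nodes, against 17.0 to 43.8 percent in the vehicle nodes.

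**Figure D3:**
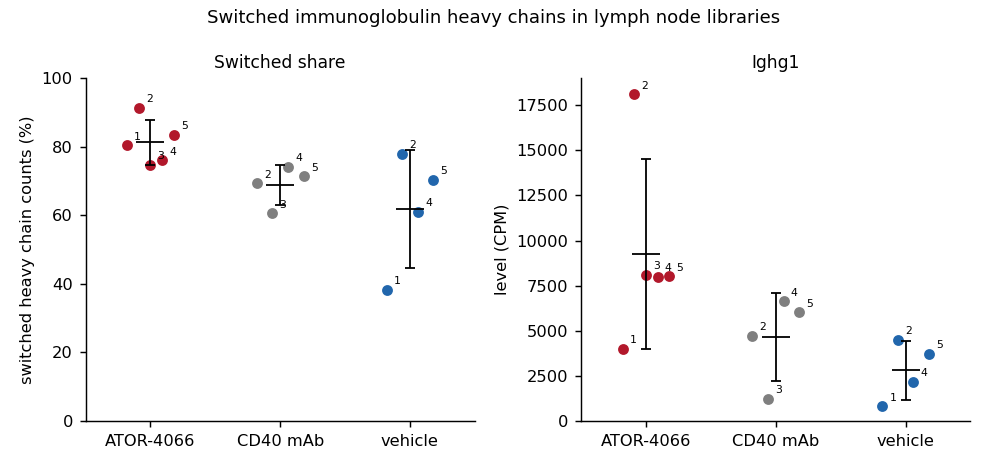
Share of immunoglobulin heavy chain counts from switched classes in percent (left) and level of Ighg1 in CPM (right) in each lymph node library, with the mean and SD of each group and title numbers. The share was 74.8 to 91.5 percent in ATOR-4066 nodes, against 38.3 to 78.0 percent in vehicle nodes, with vehicle node 1 the lowest.

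Genes of the CD40 pathway itself had small log2 changes. Of 10 genes for CD40, its ligand and TRAF adaptors, 3 were higher at an unadjusted p under 0.05 (6.27 percent of all genes were). Their median log2 change was 0.06. Without ATOR-4066 node 2, and likewise without vehicle node 1, the count was 2. It was 1 with the fat cell marker level as a covariate, an alternative added after the values were seen. Mouse Cd40 was at 65.9, 90.5, 83.8, 74.9 and 68.5 CPM in the ATOR-4066 nodes, against 61.1, 63.7, 69.3 and 57.7 CPM in the vehicle nodes, and ATOR-4066 nodes 1 and 5 lay within the vehicle range. These values are of the mouse gene, and no level of the human CD40 transgene is given here. Traf1, an adaptor that NF-kappaB itself induces, was at 154, 158, 151, 132 and 116 CPM in the ATOR-4066 nodes, against 112, 105, 111 and 113 CPM in the vehicle nodes. It was above every vehicle node in all 5 ATOR-4066 nodes, though node 5 only just, and its log2 change was 0.37 ± 0.12 (SE). Birc2, a ubiquitin ligase that binds TRAF2, had a log2 change of 0.16 ± 0.06 (SE).

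Of 17 NF-kappaB subunits, inhibitors and targets, 17 had a positive log2 change, and the median was 0.17. At an unadjusted p under 0.05, 4 were higher (6.27 percent of all genes were). This count was 2 without ATOR-4066 node 2, 2 without vehicle node 1 and 2 with the fat cell covariate. Nfkbiz, an inducible nuclear inhibitor of the IkappaB family, was at 20.8, 24.6, 24.5, 21.9 and 26.6 CPM in the ATOR-4066 nodes, against 19.1, 18.8, 19.6 and 19.6 CPM in the vehicle nodes. Its groups did not overlap, and the DESeq2 adjusted p was 0.0309. Bcl3, another nuclear protein of that family, was at 67.3 to 114 CPM in the ATOR-4066 nodes, against 51.3 to 70.2 CPM in the vehicle nodes. Of 20 genes of dendritic cell maturation and costimulation, 5 were higher and 1 lower at that p, with a median of 0.24. Over all genes 9.55 percent were lower. Of these 20 genes, 3 were higher without ATOR-4066 node 2, 2 without vehicle node 1 and 0 with the fat cell covariate. Cd80, the costimulatory ligand of CD28, was at 11.4, 17.9, 12.5, 9.36 and 10.6 CPM in the ATOR-4066 nodes, against 8.56, 8.39, 9.39 and 8.404 CPM in the vehicle nodes. ATOR-4066 node 4 lay just below vehicle node 4, and the log2 change was 0.51 ± 0.16 (SE). Socs2, a suppressor of cytokine signalling, and Marcksl1, an actin-regulating protein, had log2 changes of 0.43 and 0.35.

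Germinal center and B cell genes showed no shared direction. The median was -0.01 over 16 genes of B cell activation and the germinal center. At an unadjusted p under 0.05, 1 was higher (6.27 percent of all genes were). That gene was Irf4, a transcription factor that drives plasma cell differentiation, at 120.4, 219.6, 176, 108 and 113 CPM in the ATOR-4066 nodes, against 64.9, 117, 107 and 90.5 CPM in the vehicle nodes, with overlap between the groups. Of 14 B cell markers and 11 MHC class II presentation genes, 0 reached that p in either direction, with medians of -0.03 and 0.00. Of 13 MHC class I presentation genes, 4 were higher, with a median of 0.16, led by the chaperone Calr (0.34), the transactivator Nlrc5 (0.30) and the peptide transporter Tap1 (0.30). That count was 1 without ATOR-4066 node 2, 2 without vehicle node 1 and 1 with the fat cell covariate.

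Some cytotoxic and NK cell genes were at higher levels in ATOR-4066 nodes. Eomes, a T-box factor of cytotoxic and memory T cells and NK cells, was at 40.1, 29.9, 34.5, 46.8 and 37.9 CPM in the ATOR-4066 nodes, against 20.6, 22.1, 21.1 and 26.6 CPM in the vehicle nodes. Every ATOR-4066 node lay above every vehicle node, with a log2 change of 0.74 ± 0.14 (SE), an adjusted p of 0.222 and a DESeq2 adjusted p of 0.000368. Of 16 cytotoxic effector genes, 4 were higher at an unadjusted p under 0.05 (6.27 percent of all genes were), and the median was 0.30. The count was 2 without ATOR-4066 node 2, 5 without vehicle node 1 and 1 with the fat cell covariate. Of that list, the protease inhibitor gene Cst7 and the granule gene Nkg7 both had a log2 change of 0.30. Of 8 NK cell genes, 3 were higher, with a median of 0.34, and the receptor gene Klre1 was at 4.72, 5.34, 4.89, 4.56 and 5.74 CPM in the ATOR-4066 nodes, against 4.68, 2.96, 2.96 and 3.17 CPM in the vehicle nodes, where vehicle node 1 lay within the ATOR-4066 range.

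Of 14 checkpoint and costimulatory receptors, 6 were higher at an unadjusted p under 0.05 (6.27 percent of all genes were), 12 had a positive log2 change, and the median was 0.33. Ctla4, the inhibitory receptor that competes with CD28, was at 21.2, 33.2, 29.05, 19.8 and 23.4 CPM in the ATOR-4066 nodes, against 17.2, 19.8, 18.8 and 16.2 CPM in the vehicle nodes. Its lowest ATOR-4066 node and its highest vehicle node were level at the printed precision, and the log2 change was 0.49 ± 0.16 (SE). Lag3 and Pdcd1, the genes of LAG-3 and PD-1, had log2 changes of 0.41 ± 0.15 (SE) and 0.43 ± 0.18 (SE). This count depended on ATOR-4066 node 2 and vehicle node 1, with 2 and 3 of the 14 receptors past that p without them, and it was 0 with the fat cell marker level as a covariate, an alternative added after the values were seen.

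Of 7 regulatory T cell markers, 7 had a positive log2 change, and the median was 0.29. At an unadjusted p under 0.05, 3 were higher (6.27 percent of all genes were). This count was 3 without ATOR-4066 node 2, 2 without vehicle node 1 and 1 with the fat cell covariate. Foxp3, the factor that defines these cells, was at 27.03, 29.5, 31.3, 30.7 and 28.9 CPM in the ATOR-4066 nodes, against 20.5, 27.5, 21.3 and 26.97 CPM in the vehicle nodes, with ATOR-4066 node 1 inside the vehicle range. Ikzf2, which encodes Helios, was at 22.5, 26.02, 29.6, 23.5 and 29.4 CPM in the ATOR-4066 nodes, against 18.02, 21.1, 20.2 and 20.3 CPM in the vehicle nodes, with no overlap and a DESeq2 adjusted p of 0.033. Of 19 T cell markers, 2 were higher (10.5 percent, against that 6.27 percent), and the median was 0.13. They were the costimulatory receptor gene Cd28, at 80.6, 81.4, 76.6, 84.6 and 94.6 CPM in the ATOR-4066 nodes, against 56.6, 57.01, 54.9 and 80.1 CPM in the vehicle nodes, and the kinase gene Zap70 (log2 change 0.27). For Cd28, vehicle node 5 stood apart from the other 3 vehicle nodes and lay among the ATOR-4066 nodes.

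Inflammatory and interferon-gamma genes were mixed. Of 18 interferon-gamma-induced genes, 16 had a positive log2 change, with a median of 0.38. At an unadjusted p under 0.05, however, 1 was higher and 2 were lower, against 6.27 and 9.55 percent of all genes. Cxcl10, a chemokine that attracts CXCR3-bearing T cells, was at 47.7, 130.4, 38.7, 51.7 and 46.5 CPM in the ATOR-4066 nodes, against 36.4, 28.5, 20.999 and 15.7 CPM in the vehicle nodes. All ATOR-4066 nodes lay above all vehicle nodes, with node 2 far above the rest, and the log2 change was 1.31 ± 0.42 (SE), or -1.29 with the library labelled vehicle 3 kept. Ido1, the tryptophan-degrading enzyme, went the other way, at 2.76, 2.03, 2.22, 2.43 and 8.38 CPM in the ATOR-4066 nodes, against 31.1, 12.9, 6.52 and 14.9 CPM in the vehicle nodes. ATOR-4066 node 5 lay above vehicle node 4, and the DESeq2 adjusted p was 0.00469. Nos2, the inducible nitric oxide synthase, was at 2.32, 3.95, 1.33, 2.84 and 3.38 CPM in the ATOR-4066 nodes, against 23.4, 3.52, 3.78 and 3.17 CPM in the vehicle nodes, where vehicle node 1 alone stood above the rest.

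Of 19 inflammatory cytokines and chemokines, 5 were higher and 1 was lower at an unadjusted p under 0.05, against 6.27 and 9.55 percent of all genes. The list median was 0.51, and it was 0.09 without ATOR-4066 node 2 and 1.14 without vehicle node 1. Ccl12, a monocyte chemoattractant, was at 13.5, 25.01, 13.5, 17.6 and 18.3 CPM in the ATOR-4066 nodes, against 12.5, 12.8, 9.14 and 10.9 CPM in the vehicle nodes, with no overlap between groups, and its log2 change of 0.63 was -0.44 with the library labelled vehicle 3 kept. Ccl3, a chemokine for monocytes and T cells, was at 2.86, 5.56, 2.33, 2.31 and 2.37 CPM in the ATOR-4066 nodes, against 2.502, 0.938, 1.02 and 0.395 CPM in the vehicle nodes, and vehicle node 1 lay among the ATOR-4066 nodes. Il6 was at 0.615, 4.72, 0.808, 0.237 and 1.205 CPM in the ATOR-4066 nodes, against 0.585, 0.443, 0.357 and 0.23 CPM in the vehicle nodes, with ATOR-4066 node 2 far above the other 4. Monocyte markers split. Chil3, a chitinase-like protein of monocytes and alternatively activated macrophages, was at 5.08, 20.3, 10.2, 2.902 and 14.6 CPM in the ATOR-4066 nodes, against 2.42, 3.66, 3.21 and 2.14 CPM in the vehicle nodes, and ATOR-4066 node 4 overlapped the vehicle nodes. Ly6c2, a surface antigen of inflammatory monocytes that plasma cells and memory T cells also carry and that has a near-identical copy, was at 235, 445, 189, 215 and 251 CPM in the ATOR-4066 nodes, against 135, 174, 123 and 141 CPM in the vehicle nodes, with no overlap. F13a1, the factor XIII chain of monocytes and tissue macrophages, was at 13.6, 10.3, 4.44, 5.61 and 12.4 CPM in the ATOR-4066 nodes, against 49.4, 28.6, 30.3 and 13.02 CPM in the vehicle nodes, with ATOR-4066 node 1 just above vehicle node 5. Of 12 monocyte markers, 2 were higher and 2 were lower, with a median of 0.05.

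Some macrophage genes were at lower levels in ATOR-4066 nodes. Of 18 lymph node macrophage markers, 17 were tested, and 7 of these were lower at an unadjusted p under 0.05 and 0 higher, with a median log2 change of -0.37 (9.55 percent of all genes were lower). Every ATOR-4066 node lay below every vehicle node in 5 of the 17 (2.77 percent of all genes), and DESeq2 called 2, both lower (1.69 percent of all genes). Adgre1, which encodes the macrophage antigen F4/80, was at 12.9, 10.5, 7.69, 16.8 and 15.3 CPM in the ATOR-4066 nodes, against 47.4, 23.9, 20.04 and 21.5 CPM in the vehicle nodes. The groups did not overlap, and vehicle node 1 was far above the other vehicle nodes, with a log2 change of -1.16 ± 0.30 (SE), an adjusted p of 0.222 and a DESeq2 adjusted p of 0.0115. Mrc1, the mannose receptor CD206, was at 14.7, 18.3, 7.35, 19.9 and 22.8 CPM in the ATOR-4066 nodes, against 52.3, 34.1, 29.4 and 30.9 CPM in the vehicle nodes, again without overlap. Cd209f, a lectin of the DC-SIGN family, was at 6.77, 0.923, 0.188, 2.19 and 3.35 CPM in the ATOR-4066 nodes, against 18.8, 11.5, 12.3 and 9.98 CPM in the vehicle nodes, also without overlap. Others on the list overlapped. Marco was at 49.8 to 178 CPM in the ATOR-4066 nodes, against 92.1 to 156 CPM in the vehicle nodes. Timd4 was at 58.2 to 181 CPM, against 79.0 to 145 CPM. For both, ATOR-4066 node 4 lay above every vehicle node. Without ATOR-4066 node 4, 11 of the 17 were lower at that p (median -0.71), without vehicle node 1 it was 4 (-0.42), and with the library labelled vehicle 3 kept it was 11 (-0.88).

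Of 12 fibroblast and matrix genes, 2 were lower at an unadjusted p under 0.05 (9.55 percent of all genes were), with a median of -0.56. Without vehicle node 1 it was 1 of 12, with a median of -0.24. Dcn, the small proteoglycan decorin, was at 152, 167, 118, 167 and 235 CPM in the ATOR-4066 nodes, against 302, 333, 256 and 257 CPM in the vehicle nodes, with no overlap and a DESeq2 adjusted p of 0.00714. Lum, the proteoglycan lumican, was at 17.3, 3.55, 1.94, 7.05 and 23.2 CPM in the ATOR-4066 nodes, against 35.5, 33.7, 29.3 and 18.3 CPM in the vehicle nodes, with ATOR-4066 node 5 above vehicle node 5. Of 8 erythroid genes, 6 were tested and 6 were lower at that p, with a median of -1.96, and without vehicle node 1 this count was 0. Hbb-bs, an adult beta globin gene with a near-identical copy, was at 75.4, 19.04, 52.6, 26.6 and 52.8 CPM in the ATOR-4066 nodes, against 389.7, 172, 39.8 and 67.7 CPM in the vehicle nodes, and Alas2, the erythroid heme synthesis enzyme, was at 0.543 to 1.45 CPM in the ATOR-4066 nodes, against 0.82 to 9.99 CPM in the vehicle nodes. Vehicle nodes 1 and 2 held the highest levels of both genes, and vehicle nodes 4 and 5 lay within or close to the ATOR-4066 range. Pf4, a chemokine of platelets and of some macrophages, was at 4.27, 1.32, 0.808, 2.17 and 3.61 CPM in the ATOR-4066 nodes, against 12.5, 5.63, 5.88 and 3.83 CPM in the vehicle nodes, with ATOR-4066 node 1 above vehicle node 5.

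Macrophage and matrix lists were refitted with the fat cell marker level, which differed between nodes. With the fat cell level of each node as a covariate, 1 of the 17 macrophage markers and 1 of the 12 matrix genes were lower at an unadjusted p under 0.05, with medians of -0.77 and -0.02. With that covariate, 14 of 20 interferon-induced genes and 9 of 13 plasma cell genes were higher, with medians of 0.78 and 0.89. ATOR-4066 nodes 1 and 5, whose fat level lay within the vehicle range, had 12.9 and 15.3 CPM of Adgre1, against 20.04 CPM or more in every vehicle node. They had 152 and 235 CPM of Dcn, the matrix gene of smallest p, against 256 CPM or more in every vehicle node. Other matrix genes lay inside the vehicle range in these nodes. Postn was at 89.6 and 84.0 CPM (vehicle 71.5 to 142), and Col3a1 at 342 and 338 CPM (vehicle 195 to 726). The cause of the lower levels was not tested.

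**Figure D4:**
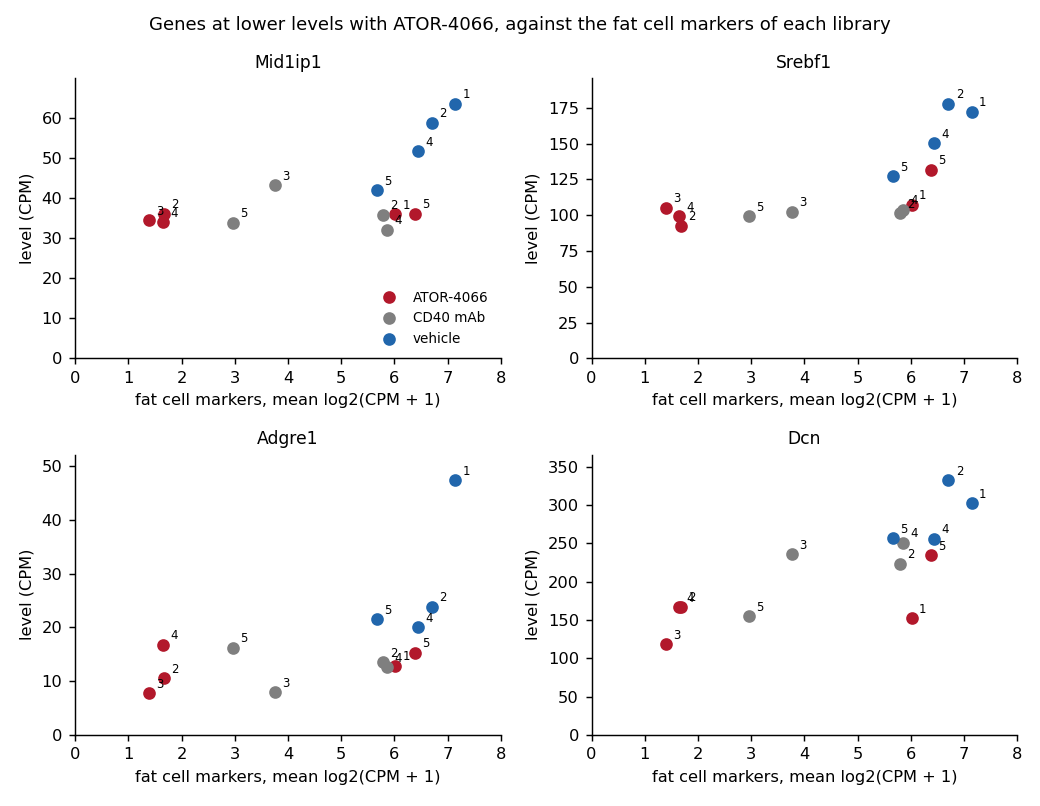
Levels in CPM of Mid1ip1, Srebf1, Adgre1 and Dcn (vertical) against the mean level of fat cell markers on the log2(CPM + 1) scale (horizontal), one point per lymph node library with its number in the titles. Mid1ip1 lay between 33.9 and 36.1 CPM in ATOR-4066 nodes at low and at high fat level, against 41.9 CPM or more in vehicle nodes. In vehicle nodes 1, 2, 4 and 5 it fell with the fat level, at 63.4, 58.8, 51.7 and 41.9 CPM for levels of 7.14, 6.71, 6.44 and 5.67.

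Named next are the 10 genes of smallest p in each direction, among genes whose average log2 CPM was 1 or more. Choice by smallest p in this same comparison favors genes whose groups do not overlap, so their separation is no further result. Among those lower, Htra1, a secreted serine protease, was at 47.8, 54.6, 48.99, 53.02 and 53.7 CPM in the ATOR-4066 nodes, against 68.3, 74.4, 66.9 and 61.4 CPM in the vehicle nodes. Its groups did not overlap, and its log2 change was -0.39 ± 0.06 (SE) (unadjusted p = 3.38e-05, adjusted p = 0.222, DESeq2 adjusted p = 0.000221). Mid1ip1, a regulator of acetyl-CoA carboxylase in fatty acid synthesis, was at 35.9, 36.1, 34.4, 33.9 and 36.1 CPM in the ATOR-4066 nodes, against 63.4, 58.8, 51.7 and 41.9 CPM in the vehicle nodes, and ATOR-4066 nodes 1 and 5 were as low as the others. Srebf1, the transcription factor of fatty acid synthesis genes, was at 107, 92.8, 105, 99.2 and 132 CPM in the ATOR-4066 nodes, against 172, 178, 150.3 and 127 CPM in the vehicle nodes, where ATOR-4066 node 5 lay just above vehicle node 5. Ugp2, which makes UDP-glucose for glycogen, was at 49.7, 46.9, 46.7, 45.3 and 58.4 CPM in the ATOR-4066 nodes, against 77.4, 69.9, 69.8 and 59.2 CPM in the vehicle nodes. Among the vehicle nodes, Mid1ip1 and Ugp2 fell in the order of the fat cell marker level (7.14, 6.71, 6.44 and 5.67). Htra1 and Srebf1 were highest in vehicle node 2. The cause was not tested.

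The other 6 of these 10 genes had log2 changes between -0.67 and -0.29. They were Agps, an enzyme of ether lipid synthesis, Aldh2, the mitochondrial aldehyde dehydrogenase, Optn, an autophagy receptor, Txnrd2, a mitochondrial thioredoxin reductase, Blvrb, a biliverdin reductase, and Uck1, a uridine-cytidine kinase. In all 6, every ATOR-4066 node lay below every vehicle node (2.77 percent of all genes), which their choice by smallest p favors. ATOR-4066 node 5 was the highest of its group for Optn, with 13.4 CPM, and the other ATOR-4066 nodes had 7.91 to 9.77 CPM, against 14.4 CPM in the lowest vehicle node. Aldh2, Optn, Txnrd2 and Uck1 also fell in the order of the fat cell marker level among the vehicle nodes, while Agps and Blvrb did not.

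Among those higher, Ccr10, a chemokine receptor of plasma cells that home to mucosa and of skin-homing T cells, was at 4.86, 4.11, 4.04, 3.18 and 3.66 CPM in the ATOR-4066 nodes, against 1.94, 2.35, 1.94 and 2.34 CPM in the vehicle nodes. The groups did not overlap, with a log2 change of 0.89 ± 0.16 (SE), an adjusted p of 0.222 and a DESeq2 adjusted p of 0.000221. Kcna3, the potassium channel Kv1.3 of T cells, was at 9.84, 9.75, 13.3, 10.99 and 11.6 CPM in the ATOR-4066 nodes, against 5.21, 4.99, 7.83 and 7.88 CPM in the vehicle nodes. Gfi1, a transcriptional repressor of blood cells, was at 8.04, 9.12, 7.07, 7.48 and 6.93 CPM in the ATOR-4066 nodes, against 5.03, 4.69, 5.04 and 5.61 CPM in the vehicle nodes, and Myb, a transcription factor of proliferating progenitors, was at 18.6, 20.2, 18.8, 17.5 and 19.2 CPM in the ATOR-4066 nodes, against 12.4, 13.9, 14.4 and 15.1 CPM in the vehicle nodes. None of these 3 genes overlapped between groups.

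Eomes, above, was also among these 10 genes, and so was Sla, an adaptor that dampens antigen receptor signalling, at 124 to 163 CPM in the ATOR-4066 nodes, against 108 to 116 CPM in the vehicle nodes. Slfn3, a Schlafen family gene of T cells, was at 5.08 to 8.13 CPM in the ATOR-4066 nodes, against 3.91 to 4.33 CPM in the vehicle nodes. Slco4a1, an organic anion transporter, was at 3.99 to 8.11 CPM in the ATOR-4066 nodes, against 2.46 to 3.49 CPM in the vehicle nodes, and Prph, the intermediate filament peripherin, at 2.12 to 4.36 CPM in the ATOR-4066 nodes, against 1.21 to 1.55 CPM in the vehicle nodes. Baiap3, a protein of vesicle fusion, was at 14.8 to 17.8 CPM in the ATOR-4066 nodes, against 10.3 to 12.7 CPM in the vehicle nodes. All 5 were separated between the groups (2.34 percent of all genes were, in this direction), which their choice by smallest p favors.

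Of 20 proliferation genes, 20 had a positive log2 change and 2 were higher at an unadjusted p under 0.05 (6.27 percent of all genes were), with a median of 0.33. The count was 0 without ATOR-4066 node 2, without vehicle node 1, with the fat cell covariate and with the library labelled vehicle 3 kept, and 9 without vehicle node 2. Mki67, the Ki-67 antigen of cycling cells, was at 172, 249.7, 204, 160.0 and 185 CPM in the ATOR-4066 nodes, against 99.8, 189, 156 and 151 CPM in the vehicle nodes, and Ube2c, a ubiquitin-conjugating enzyme of mitosis, at 43.5 to 75.3 CPM in the ATOR-4066 nodes, against 29.3 to 51.4 CPM in the vehicle nodes. For Mki67 the groups overlapped, with vehicle node 1 below all the others. Of the 15 stromal and high endothelial genes, 1 was higher and 2 lower (9.55 percent of all genes were lower), with a median of 0.02. Cxcl13, the chemokine of B cell follicles, was at 139, 241, 224, 196 and 158 CPM in the ATOR-4066 nodes, against 182, 304, 331 and 270.0 CPM in the vehicle nodes, with overlap and a log2 change of -0.51 ± 0.18 (SE). Madcam1, an adhesion molecule of high endothelial venules and follicular dendritic cells, had a log2 change of -0.69 ± 0.31 (SE), and Reln, a lymphatic endothelial matrix protein, was at 9.13, 12.5, 8.08, 11.4 and 14.5 CPM in the ATOR-4066 nodes, against 2.603, 8.11, 3.78 and 7.19 CPM in the vehicle nodes, with ATOR-4066 node 3 just below vehicle node 2.

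The remaining lists are given by their counts at an unadjusted p under 0.05, where 6.27 percent of all genes were higher and 9.55 percent lower. Of 13 conventional dendritic cell genes, 1 was higher and 2 lower (median -0.12), the lower ones being the lectin genes Mgl2 (-0.74) and Cd209a (-0.78). Neutrophils had 0 higher and 1 lower of 14 tested (median -0.03), plasmacytoid dendritic cells 0 of 8 (0.08), endothelium 0 of 11 (-0.18) and eosinophils, basophils and mast cells 1 higher and 3 lower of 10 tested (-0.44). Hypoxia and glycolysis had 0 higher and 3 lower of 14 (-0.26), immediate early and heat shock genes 0 higher and 2 lower of 16 (-0.02), skeletal muscle and skin 0 higher and 2 lower of 7 tested (-0.87), and platelets and megakaryocytes 0 higher and 1 lower of 2 tested (-0.74). The share lower was 30 percent for eosinophils, basophils and mast cells, 28.6 percent for muscle and skin and 21.4 percent for hypoxia and glycolysis. With the fat cell covariate, 1, 0 and 0 genes of these lists were lower.

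Against the nodes of CD40 mAb mice, which share the ATOR-4066 libraries with the comparison above, edgeR called 3 genes, 1 higher (0.00536 percent of those tested) and 2 lower (0.0107 percent). Cd209a, a lectin of the DC-SIGN family on dendritic cells derived from monocytes, was at 5.58, 5.01, 3.102, 7.84 and 6.497 CPM in the ATOR-4066 nodes, against 0.373, 0.355, 0.617 and 1.099 CPM in CD40 mAb nodes 2, 3, 4 and 5. It was at 12.5, 8.87, 5.79 and 11.3 CPM in the vehicle nodes. The CD40 mAb nodes lay far below both other groups, with a log2 change of 3.19 ± 0.39 (SE) for ATOR-4066 against CD40 mAb and an adjusted p of 0.0381. The interferon-inducible GTPase gene Gbp2b was at 4.01, 7.02, 6.67, 9.42 and 5.49 CPM in the ATOR-4066 nodes, against 24.1, 12.9, 22.4 and 21.99 CPM in the CD40 mAb nodes, with a log2 change of -1.64 ± 0.22 (SE) and an adjusted p of 0.0381. It was at 10.8, 12.9, 12.2 and 11.5 CPM in the vehicle nodes, also above every ATOR-4066 node. The third gene was a kappa light chain variable segment, Igkv2-137. A fit on these 2 groups alone called 0 genes, and leaving out 1 library gave 0 to 4. The call of Cd209a was lost without ATOR-4066 node 1, 2 or 5 and without CD40 mAb node 2, 3 or 4, with a positive log2 change each time, and the call of Gbp2b in 7 of the 9 such fits, with a negative log2 change each time.

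Proliferation genes stood lower in ATOR-4066 than in CD40 mAb nodes. Of 20, 17 were lower at an unadjusted p under 0.05, against 5.77 percent of all genes, and the median log2 change was -0.50. Mki67 was at 172, 249.7, 204, 160.0 and 185 CPM in the ATOR-4066 nodes, against 238, 299.8, 258 and 248 CPM in the CD40 mAb nodes, and the groups overlapped through ATOR-4066 node 2. Of the 20 interferon-induced genes, 5 were lower, with a median of -0.36. Of 7 regulatory T cell markers, 3 were higher than in CD40 mAb nodes, against 3.55 percent of all genes. Foxp3 was at 27.03 to 31.3 CPM in ATOR-4066 nodes, against 16.5 to 22.5 CPM in CD40 mAb nodes. Of the 13 plasma cell markers, 0 passed that p in either direction, and the median was 0.03.

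The effect of ATOR-4066 in lymph node was also set against its effect in whole tumor (4 ATOR-4066 and 4 vehicle tumors, without the library labelled tumor ATOR-4066 3, whose profile was that of lymph node). In the joint fit edgeR called 1362 of 20319 genes for the difference, 583 with the larger log2 change in lymph node (2.87 percent) and 779 with the smaller (3.83 percent), but 1 gene with the title number, read as the mouse, as a replicate block and 21 with both libraries of another profile kept. Creld2 differed by 1.42 ± 0.34 (SE) on the log2 scale, lymph node minus tumor (adjusted p = 0.0234). It was at 66.4, 52.8, 108 and 98.4 CPM in ATOR-4066 tumors, against 87.4, 79.3, 96.2 and 99.1 CPM in vehicle tumors, where the groups overlapped. The difference for Mki67 was 1.73 ± 0.44 (SE) (adjusted p = 0.0282), at 103, 101, 128 and 134 CPM in ATOR-4066 tumors, against 262, 310.1, 299.8 and 296 CPM in vehicle tumors. The median log2 change of the 20 proliferation genes was 0.35 in lymph node and -0.94 in tumor, and 3 were called as different. For the 20 interferon-induced genes the medians were 0.81 in lymph node and 0.65 in tumor, with 0 called as different. ATOR-4066 tumor 4 was far above the other tumors for Cmpk2, Mx1 and Usp18. In ATOR-4066 tumors 1, 2, 4 and 5, Cmpk2 was at 39.1, 41.2, 415 and 66.9 CPM (vehicle 80.6 to 99.6). Mx1 was at 29.7, 28.0, 313 and 52.7 CPM (vehicle 56.3 to 71.6), and Usp18 at 60.5, 46.5, 350 and 94.4 CPM (vehicle 66.9 to 81.9). For Cmpk2 and Mx1, ATOR-4066 tumors 1, 2 and 5 lay below every vehicle tumor. The medians of the 13 plasma cell genes were 0.89 and 0.08, with 3 called. Among the named genes, some had opposite signs in the tissues. Pf4 had a log2 change of -1.51 in lymph node and 2.13 in tumor, F13a1 -1.70 and 1.75, and the autophagy receptor gene Optn -0.66 and 1.52, with adjusted p of 0.0114, 0.0234 and 0.0114 for the difference. Without lymph node vehicle 1 the count of genes called for the difference was 156, and without tumor vehicle 4 it was 163.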

How the data were processed

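RNA was sequenced from polyA libraries of a stranded Illumina kit, per the labels, and reads were aligned to GRCm38 with STAR, per the submitters' processing notes. The name of the deposited table points to salmon, and no source used here states its settings. The authors deposited estimated counts per gene for 57010 Ensembl identifiers, 10.982 percent of them not whole, and these were rounded. Symbols were those of the deposited table, and GENCODE vM21 held 52081 of the identifiers.

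Genes were kept by edgeR's filterByExpr (count minimum 10, total minimum 15), scaled by TMM and tested with edgeR 4.0.16 (quasi-likelihood, R 4.3.3) on 13 lymph node libraries in 3 groups, with Benjamini-Hochberg adjustment over all genes. CPM values use the same scaling. DESeq2 1.42.0 and limma 3.58.1 (voom with sample weights) were alternatives. The comparison with tumor used a joint fit of 13 lymph node and 13 tumor libraries of the 3 treatments, and its contrast used 17 of them. The 2 libraries whose profile was that of another tissue were left out. Scripts were tested on simulated data.

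With no gene called, the text names the 10 genes of smallest p in each direction (average log2 CPM of at least 1), the 3 of smallest p of each of 34 gene lists, and genes picked from the comparison with CD40 mAb. Members and lists were chosen with earlier results of these data known. No pair of the 13 libraries held identical values. The precision of each value rests on 46.3 to 138.5 M counts per library.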

Additional observations from a re-analysis of the deposited data

Results flagged for a closer look

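Of 166 groups of values looked at for the named genes and the totals, 19 (11.4 percent) held a library far from the others of its group, where chance gives about 1 group in 20. Of these libraries, 9 were ATOR-4066 node 2 and 5 were vehicle node 1.

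ATOR-4066 node 2 stood above the other ATOR-4066 nodes for Creld2 (302 CPM), Derl3 (69.2 CPM), Igkc (25213 CPM), Cxcl10 (130.4 CPM), Cmpk2 (53.8 CPM), Ccl3 (5.56 CPM), Il6 (4.72 CPM), Ly6c2 (445 CPM) and Isg15 (120.3 CPM). ATOR-4066 node 5 stood above its group for Ido1 (8.38 CPM) and in total counts (138.5 M). Vehicle node 1 stood above its group for Nos2 (23.4 CPM), Usp18 (37.7 CPM), Klre1 (4.68 CPM) and Adgre1 (47.4 CPM), and below it for Bcl3 (51.3 CPM). Vehicle node 4 stood above its group for Birc2 (121.1 CPM) and Cd80 (9.39 CPM), and vehicle node 5 for Cd28 (80.1 CPM).

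The log2 change with ATOR-4066 differed between lymph node and tumor for 12 of the named genes in the joint edgeR fit without the replicate block. Lymph node minus tumor, the difference was positive for Creld2 (1.42), Sdf2l1 (0.90) and Mki67 (1.73). It was negative for Ugp2 (-0.995), Aldh2 (-0.90), Optn (-2.19), Blvrb (-1.04), Uck1 (-0.80), Nos2 (-5.25), F13a1 (-3.45), Pf4 (-3.64) and Cxcl13 (-2.12).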

How the results depend on the processing

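With DESeq2, 503 genes were called between ATOR-4066 and vehicle nodes, 152 against CD40 mAb and 2654 for lymph node minus tumor, against 0, 3 and 1362 with edgeR. Leaving out 1 library gave 0 to 17 genes against vehicle (17 without ATOR-4066 node 5, 1 without vehicle node 1, and 0 otherwise), 0 to 4 against CD40 mAb and 156 to 1779 for lymph node minus tumor. The difference in switched share stayed positive, at 11.5 to 24.7 points, with exact permutation p of 0.0357 to 0.107. Against vehicle, RLE size factors, no filter, limma with voom, a fit on the 2 groups alone, the library labelled vehicle 3 kept and the fat cell covariate each gave 0 genes, and the last of these was chosen after seeing the data.

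Fitted on those 2 groups alone, the comparison with CD40 mAb called 0 genes. For lymph node minus tumor, no filter on low counts gave 482 genes, limma with voom 4805, and keeping both libraries of another profile 21. RLE size factors gave 494 higher and 832 lower, against 583 and 779. Same-numbered ATOR-4066 and vehicle nodes had correlations of deviations of 0.387, 0.194, -0.0921 and -0.418 for numbers 1, 2, 4 and 5. The highest with another number were 0.0648, 0.160, 0.424 and 0.371. The numbers of the titles thus showed no consistent pairing of the nodes. With the replicate block, 0 genes were called against vehicle, 1 against CD40 mAb and 1 for lymph node minus tumor.

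Of 81 named genes recomputed, 6 reversed, all with the library labelled vehicle 3 kept: Cxcl10 (-1.29), Cmpk2 (-0.18), Mx1 (-0.051), Ccl12 (-0.44), Ifit3 (-0.74) and Isg15 (-0.52). The cause was not tested beyond that library's profile. ATOR-4066 node 5 alone was sequenced much deeper than the rest.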
